A study of Mus musculus with 2 samples.

Results

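The Mir322 and Mir503 cluster is a row of 7 microRNA genes on the minus strand of chromosome X of the mouse. Its members were taken by position, as all microRNA genes of GENCODE M21 on that strand between 53047997 and 53054349 of the mm10 assembly, and they are 7 of the 2202 genes in the count tables. Small RNA with inserts under 30 nt was sequenced from gastrocnemius, a calf muscle that crosses the knee and the ankle. The mice were males aged 2 months of the hybrid B6CASTF1/J, bred from the laboratory strain C57BL/6J and from CAST/EiJ, which descends from wild mice, and the labels give no treatment or added allele. The study holds 1 group with 2 libraries, labelled biological replicates 2 and 1, so the values show how strongly each gene of the cluster was read in adult muscle and how far the libraries differed. The replicates carry different sample numbers but the same donor entry, so the labels do not settle whether they are separate mice. Every SD with n = 2 and every ratio between the libraries is therefore a spread between 2 libraries, which may not be a spread between mice. There is no second condition. By the naming rule of such crosses the mother is C57BL/6J, from which the single X of a male would come; the labels do not state the direction of the cross.

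A microRNA is cut from a hairpin transcript and guides silencing of messenger RNAs that match its seed, bases 2 to 8 from its 5′ end. The leading microRNA of the cluster, miR-322 (miR-424 in humans), and miR-503 rise in mouse myoblasts that leave the cell cycle, where they lower the phosphatase Cdc25a, and miR-351 has been described in mouse muscle progenitor cells, with the cell cycle factor E2f3 as a target.

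From 5′ to 3′ the order is Mir322 (ENSMUSG00000065418.1, chrX:53054255-53054349), Mir503 (ENSMUSG00000076122.1, chrX:53053984-53054054), Mir351 (ENSMUSG00000065503.1, chrX:53053255-53053353), Mir542 (ENSMUSG00000076140.1, chrX:53049403-53049487), Mir450-2 (ENSMUSG00000076399.1, chrX:53048299-53048367), Mir450-1 (ENSMUSG00000065486.1, chrX:53048154-53048244) and Mir450b (ENSMUSG00000076050.1, chrX:53047997-53048078). Mir322 and Mir503 are 200 bases apart, and the widest gap, 3767 bases, lies between Mir351 and Mir542. No member overlaps another annotated gene. The noncoding transcript C430049B03Rik ends 696 bases upstream of Mir322 on the same strand, and the lincRNA Gm28730 lies between Mir351 and Mir542. The first 4 hairpins had 50.5 to 54.9% G and C, and the 3 of the miR-450 group had 30.5 to 36.2%.

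The mature sequences (RefSeq, GRCm38.p6) fall into groups by seed, which is in capitals. All 7 members matched the RefSeq table, with 14 mature sequences of 21 to 24 nt, 13 of them distinct, and 12 seeds. Since a read is a whole microRNA of nearly 1 length, levels were not divided by length. The first set is shown because miR-322-5p has the seed of the miR-15 and miR-16 family, here with 2 of its relatives from other chromosomes, while miR-503-5p shares bases 2 to 7 only.
miR-322-5p: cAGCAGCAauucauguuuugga
miR-195a-5p: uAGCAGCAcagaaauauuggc
miR-15a-5p: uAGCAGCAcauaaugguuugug
miR-503-5p: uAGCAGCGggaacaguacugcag
The second set is shown because miR-351-5p carries the seed of miR-125, represented by miR-125a-5p.
miR-351-5p: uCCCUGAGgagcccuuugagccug
miR-125a-5p: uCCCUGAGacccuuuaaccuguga
The third set gives the microRNAs of the 3′ part of the cluster, whose seeds, as printed, occur in no gene of the table outside the cluster.
miR-542-3p: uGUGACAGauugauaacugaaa
miR-450a-5p: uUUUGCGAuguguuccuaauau
miR-450b-5p: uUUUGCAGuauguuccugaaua

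MiR-450a-5p is made from 2 genes, Mir450-1 and Mir450-2, and this limits what can be counted. Their hairpins follow, with the run of 25 identical bases that holds all of miR-450a-5p in capitals.
Mir450-1: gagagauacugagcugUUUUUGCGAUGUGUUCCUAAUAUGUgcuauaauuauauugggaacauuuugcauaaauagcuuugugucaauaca
Mir450-2: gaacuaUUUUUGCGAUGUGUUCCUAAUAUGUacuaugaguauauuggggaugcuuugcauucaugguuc
A read of this run matches both genes, and reads that match several places are not in the gene counts. The counts of Mir450-1 and Mir450-2 are therefore uncertain and are no measure of miR-450a-5p. The other 5 members share no run of 20 or more bases with another counted microRNA gene. The closest is Mir450b, with 19 bases in common with Mir450-1, and the longest such runs of Mir322, Mir503, Mir351 and Mir542 were 11 to 13 bases.

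The gene counts summed to 2272132 in replicate 2 and to 638779 in replicate 1, which makes replicate 2 deeper by 3.56 times. Replicate 2 thus has the narrower intervals. Reads that matched several places made up 74.4% of replicate 2 and 75.2% of replicate 1 and are missing from every gene. Levels are given as CPM, counts per 1000000 counts assigned to genes of the library, with the exact 95% Clopper-Pearson interval, which covers counting error only. The muscle fibre markers listed for the tissue (9 of 9 detected at 2 CPM or more in both libraries) summed to 52158 CPM in replicate 2, against 22884 CPM in replicate 1, most of it Mir206 in both. In the same order, the smooth muscle markers (2 of 2 detected) summed to 81451 and 123068 CPM, the endothelial ones (1 of 2) to 129798 and 81286 CPM, and the fibroblast ones (3 of 4, with Mir199a-1 at 0) to 895 and 626 CPM. The leukocyte markers (4 of 4) summed to 2889 and 2542 CPM, the erythroid ones (2 of 2) to 4688 and 6176 CPM and the epithelial ones (5 of 7) to 215 and 225 CPM. The neural ones (2 of 9, with Mir9-2, Mir9-3 and the 3 Mir124a genes at 0) summed to 28.6 and 12.5 CPM. Of the 9 fibre markers, 5 share bases with another microRNA gene, while no smooth muscle or endothelial marker does. The fibre sum is therefore underestimated, and its order against those 2 sums is uncertain. Among the neural markers 8 of 9 share bases with another gene, as do 3 of the 4 fibroblast ones, including every marker named at 0. A count of 0 for these genes does not show that the microRNA was absent. In bulk tissue, fewer cells of a type and less RNA per cell cannot be told apart.

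All 7 members were detected, and together they gave 22732 counts in replicate 2 and 5942 in replicate 1. That is 1.00% of assigned counts in replicate 2 (0.988 to 1.01%) and 0.930% in replicate 1 (0.907 to 0.954%), a mean of 9653 ± 496.8 CPM (SD, n = 2). Among the 124 groups of microRNA genes lying on 1 strand within 10 kb of each other, the cluster was the 12th by summed CPM. That rank is of assigned reads only, since groups whose genes have near copies are underestimated.

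Mir322, the first gene, supplied nearly all of the cluster's assigned reads. Its share is of those reads only, since reads of miR-450a-5p match 2 members and are uncounted. It had 20899 counts in replicate 2 and 5625 in replicate 1, which is 9198 CPM (9074 to 9323) and 8806 CPM (8578 to 9038), a mean of 9002 ± 277 CPM (SD, n = 2). In assigned reads it was the 20th most abundant gene in both libraries. This rank holds for such reads only, since genes with near copies are underestimated. Its share of the cluster was 91.9% in replicate 2 (91.6 to 92.3%) and 94.7% in replicate 1 (94.1 to 95.2%), so the intervals of the 2 libraries did not meet.

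Mir503, its nearest neighbour on the chromosome and its partner in cell cycle exit, was far lower. It had 110 counts in replicate 2 and 33 in replicate 1, or 48.4 CPM (39.8 to 58.4) and 51.7 CPM (35.6 to 72.6). Mir322 thus had 190 reads for each read of Mir503 in replicate 2 (158 to 231) and 170 in replicate 1 (121 to 248). The libraries' intervals overlapped for the level and for this ratio. Ratios between genes are of reads, since ligation and amplification in library preparation depend on sequence.

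Mir351, the gene with the miR-125 seed, was the second most abundant member and the one with the widest gap between the libraries relative to its level. It had 1339 counts in replicate 2 and 145 in replicate 1, or 589 CPM (558 to 622) and 227 CPM (192 to 267). Its SD, 256 CPM around a mean of 408 CPM (n = 2), was 62.8% of the mean, against 2.15 to 23.8% for the other 6 members.

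Mir542 was next, with 277 counts in replicate 2 and 99 in replicate 1, or 122 CPM (108 to 137) and 155 CPM (126 to 189). Mir450b, at the 3′ end, had 81 and 32 counts in replicates 2 and 1, or 35.6 CPM (28.3 to 44.3) and 50.1 CPM (34.3 to 70.7). The intervals of the libraries overlapped for both genes. Mir450-1 had 15 counts in replicate 2 and 5 in replicate 1 (6.60 and 7.83 CPM). Mir450-2 had 11 and 3 counts in the same order (4.84 and 4.70 CPM), of which the smaller equals the level of 3 counts that a count of 0 would allow in replicate 1. Levels did not fall steadily along the strand, since Mir351 and Mir542 stood above Mir503 in both libraries.

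**Figure D1:**
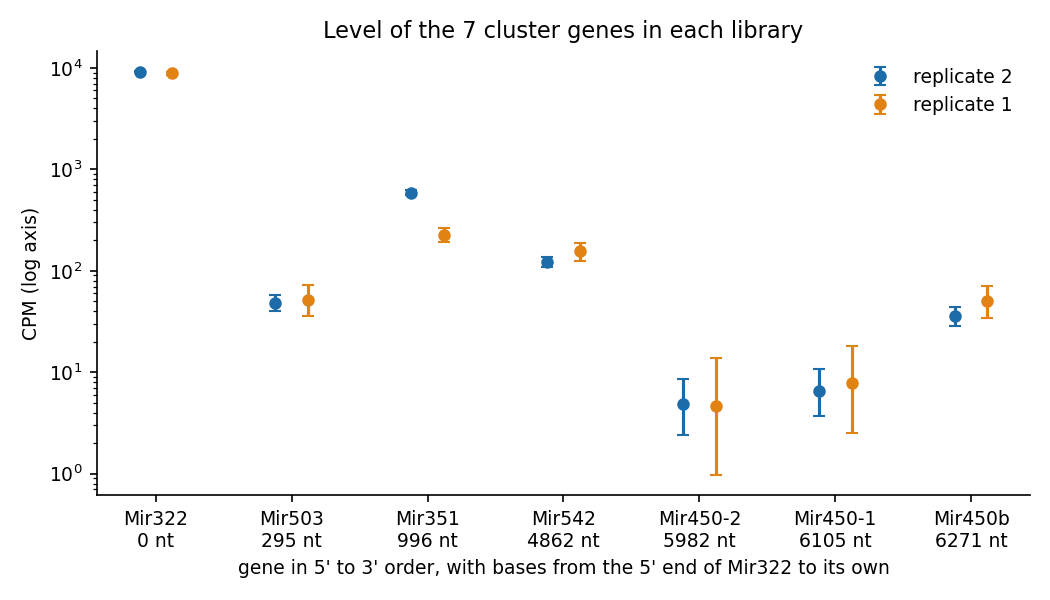
CPM of the 7 cluster genes on a log axis, in 5′ to 3′ order with the distance from Mir322 in bases, for replicate 2 (blue) and replicate 1 (orange). Bars are exact 95% intervals of counting error. Mir322 stands at 9198 CPM in replicate 2 and 8806 CPM in replicate 1, and Mir351 at 589 CPM in replicate 2 and 227 CPM in replicate 1.

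By mean CPM the order was Mir322, Mir351, Mir542, Mir503, Mir450b, Mir450-1 and Mir450-2. Mir351 and Mir542 did not overlap, the lower value of Mir351 being 227 CPM and the higher of Mir542 155 CPM. Mir503 and Mir450b did not differ beyond their spread, as Mir450b had 35.6 and 50.1 CPM and Mir503 48.4 and 51.7 CPM in replicates 2 and 1. The intervals of Mir450-1 and Mir450-2 overlapped in each library.

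Taken per 100 counts of Mir322 in the same library, a measure that does not depend on the library total, Mir351 had 6.41 in replicate 2 (6.06 to 6.77) and 2.58 in replicate 1 (2.17 to 3.04). The intervals of the other 5 members overlapped between the libraries. Mir542 had 1.33 (1.17 to 1.49) in replicate 2 and 1.76 (1.43 to 2.15) in replicate 1, Mir503 had 0.526 and 0.587, and Mir450b had 0.388 and 0.569. Mir351 had 12.2 reads for each read of Mir503 in replicate 2 (10.02 to 14.9) and 4.39 in replicate 1 (2.99 to 6.62). For each read of Mir542 it had 4.83 in replicate 2 (4.24 to 5.52) and 1.46 in replicate 1 (1.13 to 1.91).

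**Figure D2:**
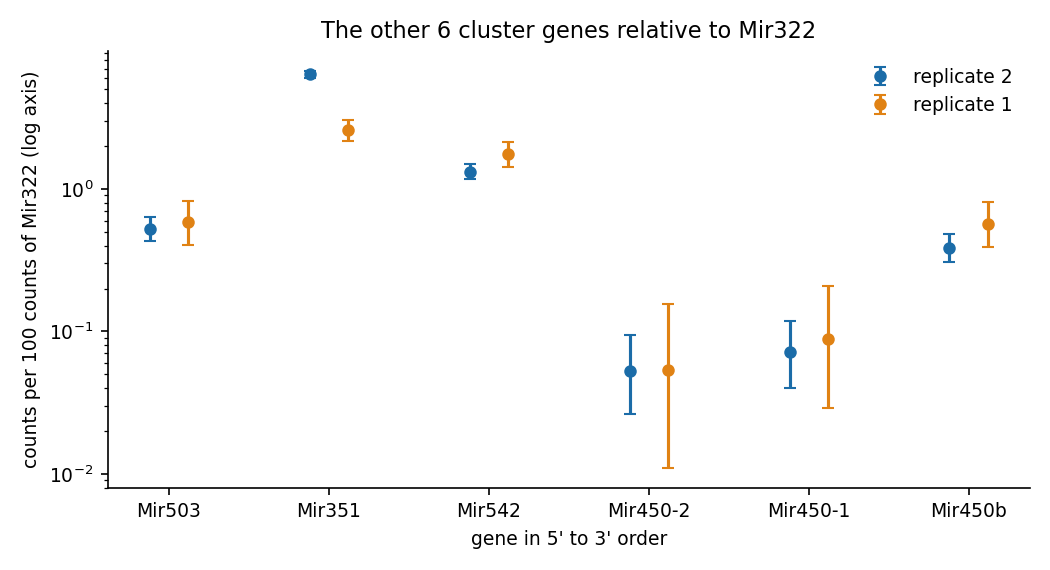
Counts of the other 6 cluster genes per 100 counts of Mir322 in the same library (log axis), for replicate 2 (blue) and replicate 1 (orange), with exact 95% intervals of counting error. For Mir351 the libraries are apart, at 6.41 and 2.58, while the intervals of the other 5 genes overlap.

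The ratio of replicate 2 to replicate 1 was tested for each gene against counting error. With 1 library per replicate this compares 2 libraries, not conditions, and p-values measure only the difference between these samples, part of which may be technical. Of the 7 members, Mir351 and Mir322 were called, both higher in replicate 2, and 5 did not pass (exact binomial test, p-values adjusted by Benjamini-Hochberg over 311 genes, threshold 0.05). Over all genes tested, 126 were called (40.5%), 72 of them higher (23.2%) and 54 lower (17.4%). With TMM scaling, edgeR's trimmed mean, 57 genes were called higher and 64 lower. The share of members called was thus not above that of all genes. No member was called lower, and 3 members had an unadjusted p under 0.05. The median log2 ratio of the members was -0.11, beside 0.04 for all genes tested, with a prior count of 0.5.

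Mir351 was 2.60-fold higher in replicate 2 (2.19 to 3.10; adjusted p = 6.8e-34, exact binomial test), and 21 of the 311 genes had a higher log2 ratio. The marker sums given above for muscle fibre, endothelium, fibroblast, leukocyte and neural were also higher in replicate 2, and their part in the ratio of Mir351 was not tested. Single markers did not all follow their sums. Of the 4 leukocyte markers 2 were called higher, Mir142 was called lower and Mir223 did not pass, with a median log2 ratio of -0.02. Of the 3 fibroblast markers tested, Mir214 was called higher, Mir199b was called lower and Mir199a-2 did not pass. Of the 9 fibre markers 4 were called higher and 5 did not pass, and neither of the 2 neural markers tested passed. Mir322 was 1.04-fold higher (1.01 to 1.08; adjusted p = 0.011, exact binomial test). With TMM scaling, which moves all log2 ratios by -0.06, Mir322 had a log2 ratio of 0.0025 and did not pass (adjusted p = 0.99, exact binomial test).

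Mir542 stood at 0.787-fold (0.623 to 1.00) and did not pass (adjusted p = 0.10, exact binomial test). With TMM scaling it was called lower, just inside the threshold (adjusted p = 0.04998, exact binomial test; log2 ratio -0.41). Mir450b had a ratio of 0.712 (0.467 to 1.11), Mir503 of 0.937 (0.630 to 1.43), Mir450-1 of 0.843 and Mir450-2 of 1.03, and none of these 4 passed. The log2 ratio of Mir450-2 is below 0 (-0.11) where its plain ratio is above 1, because of the prior count. With 3 to 33 counts in replicate 1, differences within these intervals were not detectable.

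When the spread between the libraries was itself counted as noise, by edgeR's exact test at a common coefficient of variation of 27.6%, 2 of 311 genes (0.643%) and none of the members were called. Mir351 then had an unadjusted p of 0.020 and an adjusted p of 0.50 in that exact test, and it was the only member with an unadjusted p under 0.05. This noise estimate comes from the same 2 libraries.

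**Figure D3:**
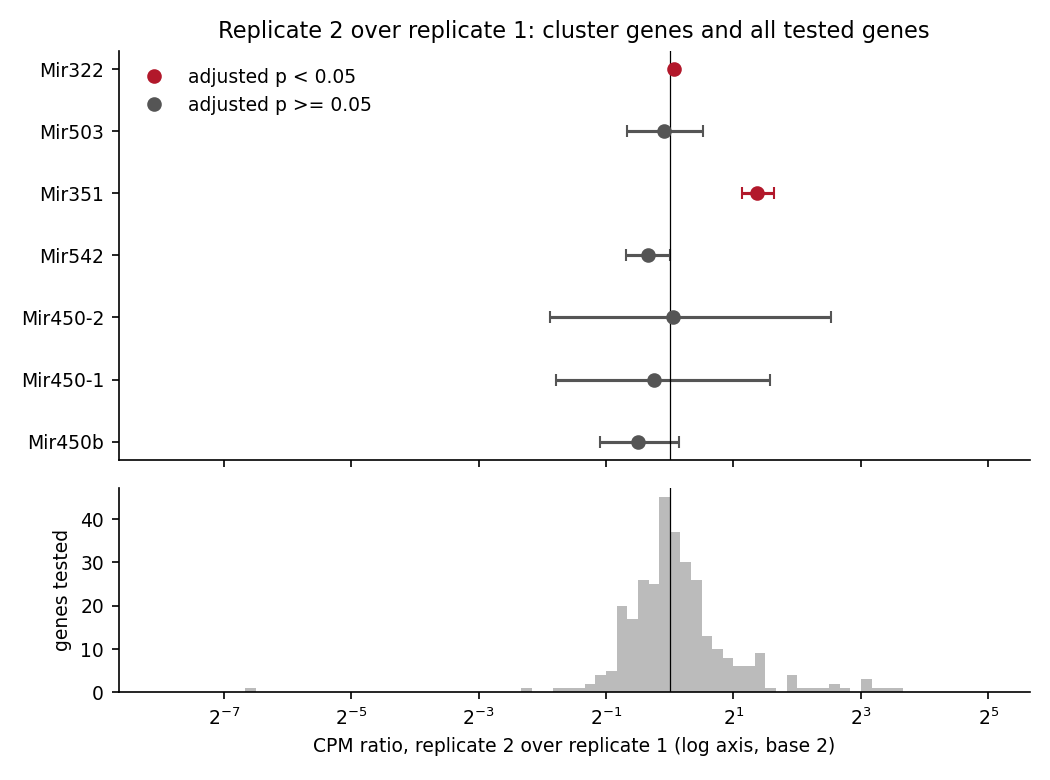
Ratio of CPM in replicate 2 over replicate 1 (log axis, base 2). The upper panel shows the plain ratios of the 7 cluster genes with exact 95% intervals of counting error, in red where the adjusted p was under 0.05. The lower panel is a histogram over the 311 genes tested, whose ratios include a prior count of 0.5. Mir351 lies at 2.60 and the other 6 genes between 0.712 and 1.04.

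Without Mir351 the cluster sum differed little between the libraries. Summed over the other 6 members, replicate 2 had 9415 CPM and replicate 1 had 9075 CPM, a ratio of 1.04 (1.01 to 1.07), against 1.08 (1.05 to 1.11) with Mir351 included. Nearly all of the sum without Mir351 was Mir322 (9198 and 8806 CPM in replicates 2 and 1), so that sum says little of the remaining members. Summed over the 6 members other than Mir322, replicate 2 had 807 CPM and replicate 1 had 496 CPM, of which Mir351 gave 589 and 227 CPM. No member had a count on the opposite strand in either library, and each had the same count with and without regard to strand.

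Through its seed, miR-322-5p belongs with the miR-15 and miR-16 family, whose members restrain the cell cycle. The RefSeq table gives this seed to 11 genes of the count tables, of which 7 were detected. The other 4 (Mir195b, Mir6342, Mir6353 and Mir6419) were at 0 in each library, where a count of 0 leaves room for 1.32 CPM (replicate 2) or 4.70 CPM (replicate 1) if the reads match 1 place. The 11 genes reached 21531 CPM in replicate 2, against 20242 CPM in replicate 1. In assigned reads Mir322 was the highest of them in both libraries, with 42.7% of their counts in replicate 2 (42.3 to 43.2%) and 43.5% in replicate 1 (42.6 to 44.4%). These counts are per gene and do not separate the 5p from the 3p arm.

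Mir195a followed, with 8170 CPM in replicate 2 and 7031 CPM in replicate 1, both below either value of Mir322. Mir15a had 1224 and 1661 CPM, Mir16-1 1459 and 1312 CPM, and Mir497, which lies beside Mir195a, 988 and 989 CPM in replicates 2 and 1. Mir16-2 had 301 and 243 CPM and Mir15b 189 and 200 CPM. Mir16-1 and Mir16-2 both encode miR-16-5p and share 20 bases or more, so reads of miR-16-5p match both genes and are uncounted. The share of Mir322 and its lead therefore hold for assigned reads only, and its order against miR-16-5p is uncertain. Of the 6 tested relatives of miR-15 and miR-16 in a list of 8 genes, 3 were higher in replicate 2, 1 was lower and 2 did not pass, with a median log2 ratio of 0.08. Over all genes tested, 23.2% were higher and 17.4% lower, with a median of 0.04.

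For the seed of miR-351-5p the order in assigned reads was different. Mir125a led with 1990 CPM in replicate 2 and 1982 CPM in replicate 1, a ratio of 1.00 (0.943 to 1.07). Mir351 gave 20.5% of the counts of the 6 genes with this seed in replicate 2 (19.6 to 21.6%) and 8.98% in replicate 1 (7.63 to 10.5%). Mir125b-1 had 184 and 205 CPM and Mir125b-2 104 and 114 CPM in replicates 2 and 1. Both encode miR-125b-5p, so a read of it matches both genes and is uncounted, and their levels are underestimated. The lead of Mir125a and the share of Mir351 therefore hold for assigned reads only. Neither Mir125b gene nor Mir125a passed the test. Mir6367 and Mir6394 had no count. In assigned reads the interval of Mir351 lay above the 184 CPM of Mir125b-1 in replicate 2 and held the 205 CPM of that gene in replicate 1. Their order is uncertain, because Mir125b-1 is underestimated.

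**Figure D4:**
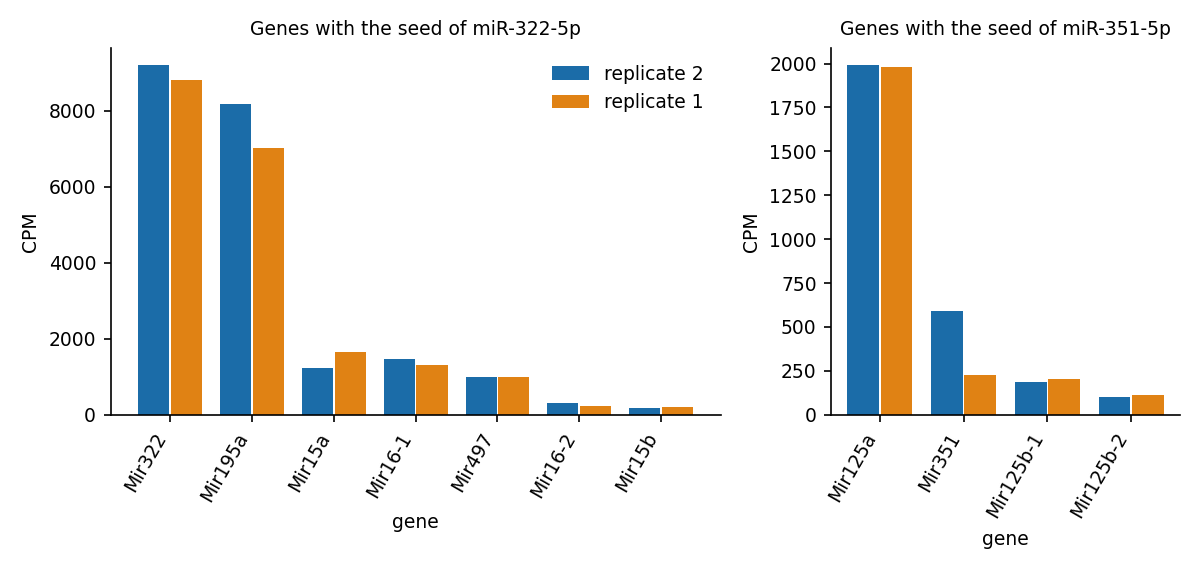
CPM of the detected genes that carry the seed of miR-322-5p (left) and of miR-351-5p (right), as bars for replicate 2 (blue) and replicate 1 (orange). Bars show assigned reads only, so Mir16-1, Mir16-2, Mir125b-1 and Mir125b-2 are underestimated. Mir322 is the highest bar on the left in both libraries, and on the right Mir351 has 589 and 227 CPM in replicates 2 and 1 beside 1990 and 1982 CPM for Mir125a.

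On chromosome X, the cluster was the main source of assigned microRNA reads. Of 142 microRNA genes there, 31 were detected and 101 were at 0 in each library. The 7 members held 45.2% of the chromosome's 50331 counts in replicate 2 (44.7 to 45.6%) and 45.3% of its 13126 counts in replicate 1 (44.4 to 46.1%), and the intervals overlapped. In assigned reads Mir322 had the highest level of the 31, ahead of Mirlet7f-2 with 5277 and 4302 CPM in replicates 2 and 1, and Mir351 was the 8th by mean CPM. Mirlet7f-2 shares bases with 2 other genes and is underestimated, so the order of these genes and the cluster's share of the chromosome hold for assigned reads only. The next groups of neighbouring genes on the chromosome were Mirlet7f-2 with Mir98 (6413 ± 731 CPM, SD, n = 2), the 5 genes led by Mir532 (1088 ± 35.4 CPM), Mir221 with Mir222 (244 ± 17.9 CPM) and Mir374b with Mir421 (240 ± 14.4 CPM).

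**Figure D5:**
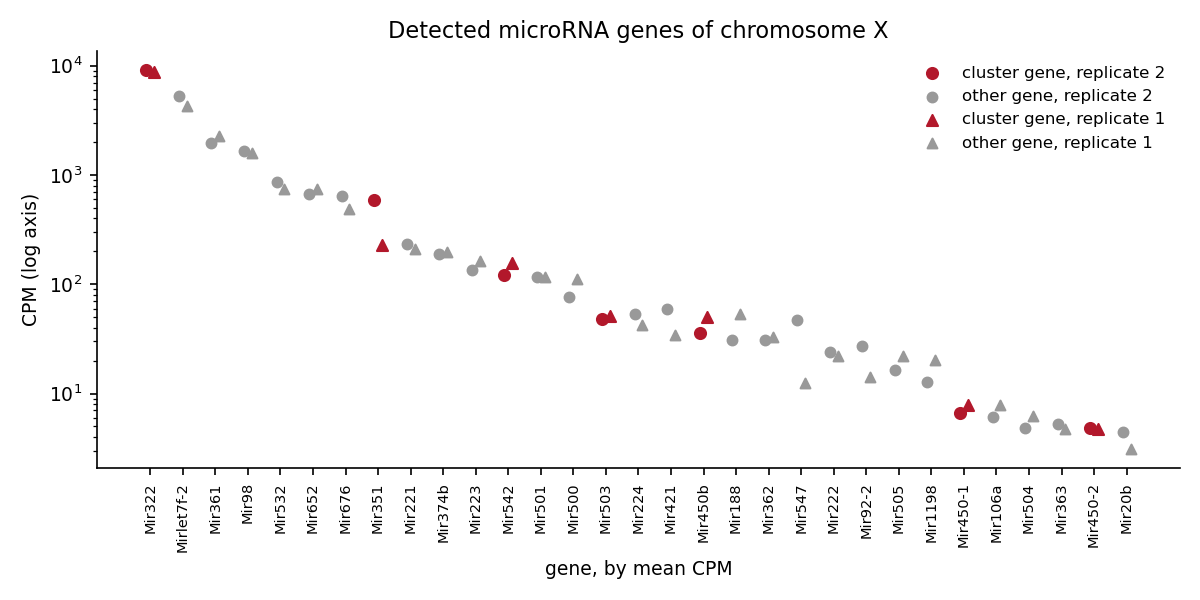
CPM (log axis) of the 31 detected microRNA genes of chromosome X in order of mean CPM, for replicate 2 (circles) and replicate 1 (triangles), with the 7 cluster genes in red and the others in grey. Mir322 has the most assigned reads in both libraries, and the red points reach down to Mir450-2 near 4.8 CPM.

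Over all genes, in assigned reads, Mir322 stood between Mir10b above it (12289 CPM in replicate 2 and 11718 in replicate 1) and Mir139 below it (8364 and 7002 CPM). The 3 genes next above, which are Mirlet7b, Mir30e and Mir10b, and the 3 next below, Mir139, Mir195a and Mir127, had no value within the range of Mir322. By the sum of absolute log2 differences in CPM over the 2 libraries, the nearest to Mir322 were Mir139 (0.468), its seed relative Mir195a (0.496) and Mir10b (0.830). Each of the other 6 members had neighbours in the order whose range overlapped its own. Mir351 lay between Mir337 (407 and 415 CPM in replicates 2 and 1) and Mir487b (509 and 272 CPM).

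Set beside other microRNAs of the muscle lineage, Mir322 lay below Mir378a and Mir206 in assigned reads and above the next 4 by mean CPM. In the list of 23 genes of myoblast differentiation and cell cycle exit, of which 17 share bases with another gene, Mir378a, one of those sharing bases, had 139630 and 187270 CPM in replicates 2 and 1. Mir206, found in skeletal muscle, had 48078 and 20325 CPM. Mir29a had 4606 and 7333 CPM, Mir27b 4449 and 4898 CPM, Mir29c 789 and 1935 CPM and Mir486 1133 and 889 CPM. Mir27b and Mir29c also share bases with another gene, so their levels are underestimated and their order against Mir322 is uncertain. The search found no shared bases for Mir486 but did not count genes that overlap in position. Whether Mir486 is fully counted is thus open, and so is its order against Mir322. Of the 21 tested, 5 were higher in replicate 2, 6 were lower and 10 did not pass, with a median log2 ratio of -0.14, where 40.5% of all genes tested were called. Genes that encode miR-1 or miR-133 share reads with their copies and are not compared with Mir322.

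In the list of 6 genes of satellite cell quiescence, 4 were tested, of which Mir195a was called higher in replicate 2, Mir27b lower, and Mir497 and Mir708 did not pass (median log2 ratio -0.04). Mir489, a microRNA of quiescent satellite cells, had 0 counts in replicate 2 and 1 in replicate 1, and Mir31 had 2 and 3. Of 12 genes of proliferating myoblasts, 11 were matched by symbol and 9 were tested, of which 2 were higher, 2 were lower and 5 did not pass (median log2 ratio 0.08). The unmatched symbol was Mir18a, for which the annotation has Mir18, in the group of Mir17 and Mir19a. Mir18 is left out of these counts and of the median, and had a log2 ratio of -0.74 in edgeR's exact test. In assigned reads the highest matched genes of this list were Mir93 (1520 and 1526 CPM in replicates 2 and 1), Mir155, also a leukocyte microRNA (1314 and 1065 CPM), and Mir17 (1125 and 1360 CPM). Each was above either value of Mir351 and below either value of Mir322. Mir92-1 and Mir19b-1 of the list share bases with another gene, so they are underestimated and their order against these genes is uncertain. With so few genes tested, the counts called in these lists are read only beside the 40.5% of all genes.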

How the data were processed

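Each deposited table holds the raw read counts of 1 library for every microRNA gene, made by the authors on mm10 with GENCODE M21, per the texts deposited with the tables. No aligner or counter is named in those texts or the labels (not given in the sources used here). Of the 3 count columns, the second, read as the strand of the gene because it held the largest total, was used. Totals for unmapped reads (6.93% in replicate 2, 5.97% in replicate 1), multi-mapping reads and reads with no feature (2.48% and 1.62%) stayed out of library sizes. Reads that match several places are absent, so genes with near copies are underestimated. Copies that lie elsewhere in the genome were not searched.

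Symbols, positions (1-based) and hairpins came from GENCODE M21, on which all 2202 identifiers matched, and mature sequences from RefSeq (GRCm38.p6). Both builds are GRCm38, as mm10 is. Members were found as the chain of same-strand genes around Mir322 with at most 10 kb between neighbours. A gene was detected at 2 CPM in both libraries. The test was a two-sided binomial one, exact and conditional on the gene's total, for the 311 genes whose counts in the pair of libraries reached 10, with p-values adjusted by Benjamini-Hochberg and a threshold of 0.05. Its ratios are of replicate 2 over replicate 1, with exact conditional intervals. The test was checked on counts simulated with counting error alone, which is the error it assumes. That check does not cover any further spread between libraries. Shared bases were searched on both strands, but genes that overlap in position were not counted as sharing. The limit allowed by a count of 0 (3 counts) and the intervals cover counting error only, because PCR copies of a molecule cannot be recognised without molecular identifiers.

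Alternatives were TMM and DESeq2 scaling, other floors, the unstranded column, edgeR's exact test and each library left out. The members, gene lists and tests were chosen with earlier results of these data known. Named genes are the members, genes with their seeds, those next to them in level, the leading groups on chromosome X and up to 6 of each list. Some list members at low counts were named after their values were seen. The comparison of Mir351 with the other members was also chosen after the data were seen. The tools were R 4.3.3 (DESeq2 1.42.0, edgeR 4.0.16) and Python 3.11.15 (scipy 1.17.1, pandas 2.3.3, matplotlib 3.10.9, numpy 2.4.6).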

Additional observations from a re-analysis of the deposited data

How the results depend on the processing

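With the exact test of edgeR and 1 dispersion for all genes, 2 genes were called in place of 126 and 0 members in place of 2. That test counts the spread between the libraries as noise. Those 2 genes, Mir543 and Mir292, were named after the result was seen, and 20 genes had an unadjusted p under 0.05. Mir450-2 changed the sign of its log2 ratio in that test, 0.043 in place of -0.11, and passed in neither. With the unstranded column the members' counts were the same and the total was 1591442 in replicate 2 and 447110 in replicate 1, so the mean sum of the members was 13787 CPM in place of 9653. Their share of chromosome X counts was then 45.6% and the share of Mir322 among genes with its seed 45.3%. Under the other scalings and floors tried, 120 to 126 genes were called, and with the unstranded column 114. Each of these settings called 2 members, but with TMM scaling the one called lower was Mir542 and Mir322 was not called. Without either library the share of Mir322 in the cluster was 91.9 to 94.7%, the summed level of the members was 9302 to 10005 CPM, their share of chromosome X 45.2 to 45.3% and the share of Mir322 among genes with its seed 42.7 to 43.5%. The ratio between the libraries has no value with 1 library left out. All 7 members were detected at a minimum of 1 CPM and 6 at 5 CPM. At 18 identical bases 3 members shared sequence and at 22 bases 2 did. No paired analysis was possible because the series holds 1 group with 1 library per replicate number.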

Other observations

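The shares of leading genes in large groups of neighbouring microRNA genes are given here as a description with no test. Of the 124 groups, 5 held at least 5 detected genes. Mir322 gave 93.3% of its group's summed mean CPM. The other leading genes were Mir127 with 76.6%, Mir532 with 73.9%, Mir467e with 44.4% and Mir411 with 43.3% of theirs. The group of Mir467e holds 119 genes, of which 117 share bases with another gene, so its share is uncertain. Genes sharing bases also number 2 in the group of Mir322, 2 in that of Mir127 and 5 in that of Mir411. Those shares hold for assigned reads only. Among the 39 groups with at least 2 detected genes, 13 had a leading share above that of Mir322, and the median was 85.5%.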
